A study of Mus musculus with 23 samples.

Results

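Genes for collagens, laminins, integrins and the proteases that cut the extracellular matrix were followed in astrocyte-tagged and remaining RNA of the crushed mouse spinal cord. Members were taken by symbol (Col, Lam, Itga, Itgb, Mmp, Timp, Adam and Adamts genes). The rule itself uses no measured value, but it was chosen with earlier results of these data known. The rule found 59 genes of 9480, of which 58 were listed for the tagged fraction, 22 for the other fraction and 21 for both. They comprised 15 collagens, 6 laminins, 8 integrin alpha and 5 integrin beta chains, 8 Mmp, 4 Timp, 4 Adam and 6 Adamts genes. The last include the Adamts-like genes Adamtsl3 and Adamtsl4, which were placed there by symbol and not as proteases. The remaining 3 (Col4a3bp, Itgb1bp1 and Itgb3bp) match the symbols but are not matrix or adhesion chains themselves.

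All libraries came from young adult mGFAP-Cre-RiboTag mice, whose genotype field reads wild type. In these mice Cre under a mouse Gfap promoter switches on a hemagglutinin tag on ribosomes, so tagging follows wherever that promoter has been active and is not a direct mark of an astrocyte. Every animal had a severe crush injury (SCI) at thoracic level 10, and the central 3 mm of the lesion was taken 14 days later. RNA bound to tagged ribosomes (HA) and the unbound flow-through (FT) were sequenced separately. Both fractions are present for 10 title numbers, and FT numbers 1645, 1683 and 1729 have no HA library. Uninjured cord was not analysed here, so every group shares the injury. The HA libraries held 3 of hydrogel with growth factors, 3 of hydrogel CT and 4 of SCI only, and the FT libraries held 5, 4 and 4 of these treatments in that order. Hydrogel depots were given 2 days after injury. The labels do not explain CT, and the series title names FGF and EGF where the deposited column names read BDNF and NT3, so the group is called growth factors here. Title numbers run from 1645 to 1762 in the hydrogel groups and from 9596 to 9935 in SCI only, so the hydrogel and whatever separates these number ranges cannot be told apart.

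Collagens and laminins build interstitial matrix and basement membranes, and integrins, each an alpha paired with a beta chain, tie cells to them. Mmp, Adam and Adamts metalloproteases cut matrix and cell surface proteins, and the Timp proteins are the tissue inhibitors of these enzymes. In spinal cord lesions a collagen-rich core laid down by stromal cells is known to be bordered by reactive astrocytes.

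Depth differed widely. Counts are given here without Yam1, Lars2 and all Gm or Rik models. This set was taken by symbol to stand for ribosomal RNA loci and does not measure ribosomal RNA. Without it, the HA libraries held 286459 to 1544438 counts with growth factors, 2840149 to 5755851 with hydrogel CT and 243249 to 819553 in SCI only. The FT libraries held 2268 to 115148, 4222 to 41251 and 29518 to 269116 in the same order. The members received 622 to 24293 counts per HA library and 6 to 1260 per FT library, with 31 to 56 of 58 and 4 to 22 of 22 detected. Of 11 tested astrocyte markers, 10 were higher in HA than in FT (Gfap by 3.47 and Clu by 3.91 on the log2 scale), while 8 of 9 microglia and macrophage markers and 5 of 5 neuronal markers were lower in HA (edgeR, adjusted p under 0.05). Of 6 tested oligodendrocyte progenitor markers 5 were also higher in HA, so the tagged fraction was not marked by astrocyte genes alone.

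In pooled counts, the Timp genes and Itgb8 made up most of the signal. Of all counts over the members, 52.9% fell on the 4 Timp genes and 25.2% on the 5 integrin beta chains, against 6.2% on the 15 collagens and 2.05% on the 6 laminins. Deep libraries weigh most in these shares, and 1 HA hydrogel CT library gave 9291 of 16180 Itgb8 counts. By HA library, integrin beta chains held 8.25 to 16.1% with growth factors, 14.7 to 41.2% with hydrogel CT and 11.1 to 16.3% in SCI only. Timp genes held 47.1 to 67.3%, 46 to 56.3% and 36.9 to 58.3%, and collagens 2.44 to 9.59%, 3.05 to 8.28% and 3.87 to 28.1%. To compare genes, CPM values (counts relative to the scaled library size) were divided by the length of the deposited transcript in kilobases. On this scale Timp2, a secreted inhibitor that also helps Mmp14 to activate Mmp2, averaged 25.9 ± 13 CPM per kilobase in HA growth factor libraries, 11.2 ± 5.66 with hydrogel CT and 13.7 ± 9.23 in SCI only (SD, n = 3, 3 and 4). Timp3, the inhibitor that binds to the matrix, averaged 20.9 ± 20, 14.3 ± 5.51 and 6.57 ± 3.51 CPM per kilobase in the same order. Timp4, an inhibitor with a narrow tissue range, averaged 9.94 ± 7.09, 7.68 ± 2.81 and 7.78 ± 2.68. Itgb8, the integrin chain that pairs with alpha V to release active TGF-beta, averaged 4.57 ± 4.59, 8.41 ± 5.21 and 2.89 ± 0.765. The libraries of these 4 genes overlapped within each treatment, except that Itgb8 lay below Timp2 with growth factors and below Timp2 and Timp4 in SCI only. The fourth inhibitor, Timp1, averaged 1.1 ± 0.818, 0.341 ± 0.291 and 1.82 ± 0.793 CPM per kilobase. The type I collagen chain Col1a1 averaged 0.403 ± 0.202, 0.676 ± 0.861 and 0.158 ± 0.137 CPM per kilobase. The heatmap of HA libraries shows the Timp2, Timp3, Timp4 and Itgb8 bands above the other members in most libraries.

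**Figure D1:**
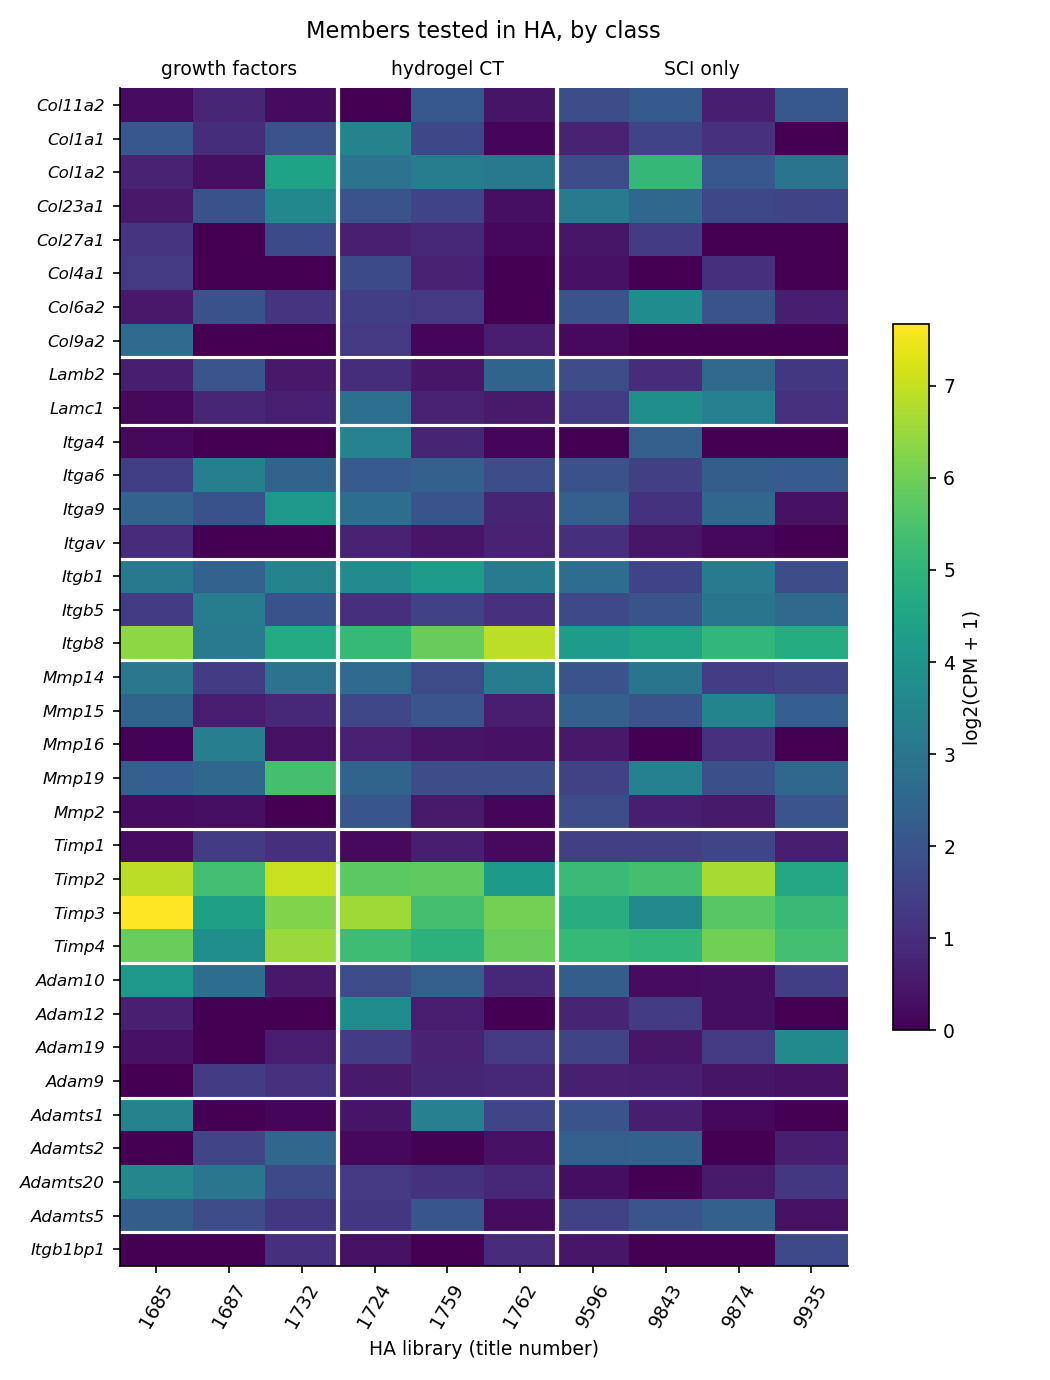
Levels of the 35 members tested in HA (vertical, grouped by class between white lines) in the 10 HA libraries (horizontal, by title number within treatment), coloured by log2(CPM + 1). Timp2, Timp3, Timp4 and Itgb8 form the bright bands, and single bright cells, such as Mmp19 in library 1732 at 41.6 CPM, mark members with most of their signal in 1 library.

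The first comparison asks which matrix and adhesion genes are carried by tagged ribosomes rather than left in the flow-through. Timp3, Timp4 and Itgb8 were higher in HA, and Itgb5 and Col1a1 were lower in HA. The test used the 10 title numbers with both fractions and the genes listed for both, with CPM on 1 common scale. Of 12 tested members 5 passed edgeR's adjusted p under 0.05, 3 higher and 2 lower, where 20.6% of the 3295 genes tested passed (13.2% higher and 7.37% lower). DESeq2, which tested 4689 genes, called 22.9% of them, 10.4% higher and 12.4% lower, and 6 of 21 members. At an unadjusted p under 0.05 there were 6 members of 12, against 32.4% of all genes. For none of the 12 were the HA and FT libraries fully apart, which held for 2.12% of all genes. The median log2 difference was 0.47 over the 12 members and 0.28 over all genes tested. In tissue lysates a gene lower in a fraction because fewer cells contribute and one lower because each cell holds less RNA cannot be told apart.

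The 200 bases before the start are shown for 3 of the 5 called members, Timp3, Timp4 and Itgb5. They were read from RefSeq for GRCm38.p6, ending before the more upstream of the RefSeq and GENCODE starts, at chr10:86300172-86300371 on the plus strand for Timp3, chr6:115252206-115252405 on the minus strand for Timp4 and chr16:33829465-33829664 on the plus strand for Itgb5. Capitals mark GC boxes, GGGCGG or its reverse complement CCGCCC.
Timp3: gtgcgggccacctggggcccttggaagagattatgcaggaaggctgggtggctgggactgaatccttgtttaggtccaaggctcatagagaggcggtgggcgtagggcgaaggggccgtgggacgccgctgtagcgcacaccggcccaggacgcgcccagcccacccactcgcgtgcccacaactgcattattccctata
Timp4: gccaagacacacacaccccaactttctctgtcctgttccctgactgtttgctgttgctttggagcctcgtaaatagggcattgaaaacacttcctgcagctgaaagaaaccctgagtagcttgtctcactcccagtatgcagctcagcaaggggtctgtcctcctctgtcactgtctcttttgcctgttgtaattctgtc
Itgb5: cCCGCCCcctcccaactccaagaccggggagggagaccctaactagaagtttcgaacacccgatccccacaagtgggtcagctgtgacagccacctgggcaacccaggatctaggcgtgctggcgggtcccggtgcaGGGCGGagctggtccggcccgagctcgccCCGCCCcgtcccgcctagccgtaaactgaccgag
The Itgb5 window held 3 GC boxes, which begin 199, 63 and 34 bases before the start, and the Timp3 and Timp4 windows held none. Of 32851 windows of the same length, 31% held at least 1 GC box. GC content was 64% with 13 CpG in Timp3, 49.5% with 1 CpG in Timp4 and 68% with 16 CpG in Itgb5, against a median of 53% and 5 CpG over all windows. On either strand, none of the 3 windows held TATAAA (9.96% of all windows), the AP-1 letters TGANTCA (5.48%), the STAT letters TTCNNNGAA (5.49%) or the NFI palindrome (0.0365%). RefSeq windows were at hand for 42 of the 59 members. No usable window was found for Itgb8, higher in HA, or Col1a1, lower in HA. The windows shown therefore do not compare the members higher in HA with those lower in HA.

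Among the inhibitors, Timp3 (GENCODE chromosome 10, 86300372 to 86349506, plus strand, 5 exons) had 22.5, 81.6 and 310 CPM as lowest, median and highest of the 10 HA libraries, against 0, 12.1 and 24.4 CPM in the 10 FT libraries. HA was above FT in 10 of 10 title numbers, although the lowest HA library lay below the highest FT library. The means were 103 ± 83.5 and 10.7 ± 7.61 CPM (SD, n = 10 each), a log2 difference of 3.12 (SE 0.48, edgeR adjusted p 1.45e-05). Timp4 (chromosome 6, 115241892 to 115252205, minus strand, 5 exons) had 24, 72.2 and 148 CPM in HA and 0, 13.2 and 24.5 CPM in FT. It too was above FT in 10 of 10 numbers, with means of 79.2 ± 35.9 and 13.1 ± 8.24 CPM and a log2 difference of 2.64 (SE 0.44, edgeR adjusted p 2.98e-05). Exons of Timp4 overlap those of Syn2, a synaptic vesicle gene on the opposite strand, and the strand setting of the counting is not given in the sources used here. Syn2 itself differed by -0.76 (SE 0.66, edgeR adjusted p 0.462).

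Timp2 did not follow its paralogs. It had 27.9, 85.1 and 214 CPM in HA and 54.1, 155 and 311 CPM in FT, and its log2 difference of -0.60 did not pass (SE 0.40, edgeR adjusted p 0.296). Within SCI only libraries the values were 63.7, 83.8, 185 and 46.9 CPM in HA and 241, 290, 311 and 228 CPM in FT, so the fractions did not overlap there. A fit of these libraries alone gave -1.46 (SE 0.41, edgeR adjusted p 0.0254). With hydrogel CT, Timp2 was lower in HA in 3 of 3 title numbers. In growth factor libraries the order was mixed, at 178, 75.2 and 214 CPM in HA and 64.6, 138 and 61.7 CPM in FT. Over all treatments Timp2 was lower in HA in 8 of 10 title numbers. Timp1 was not listed for FT.

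**Figure D2:**
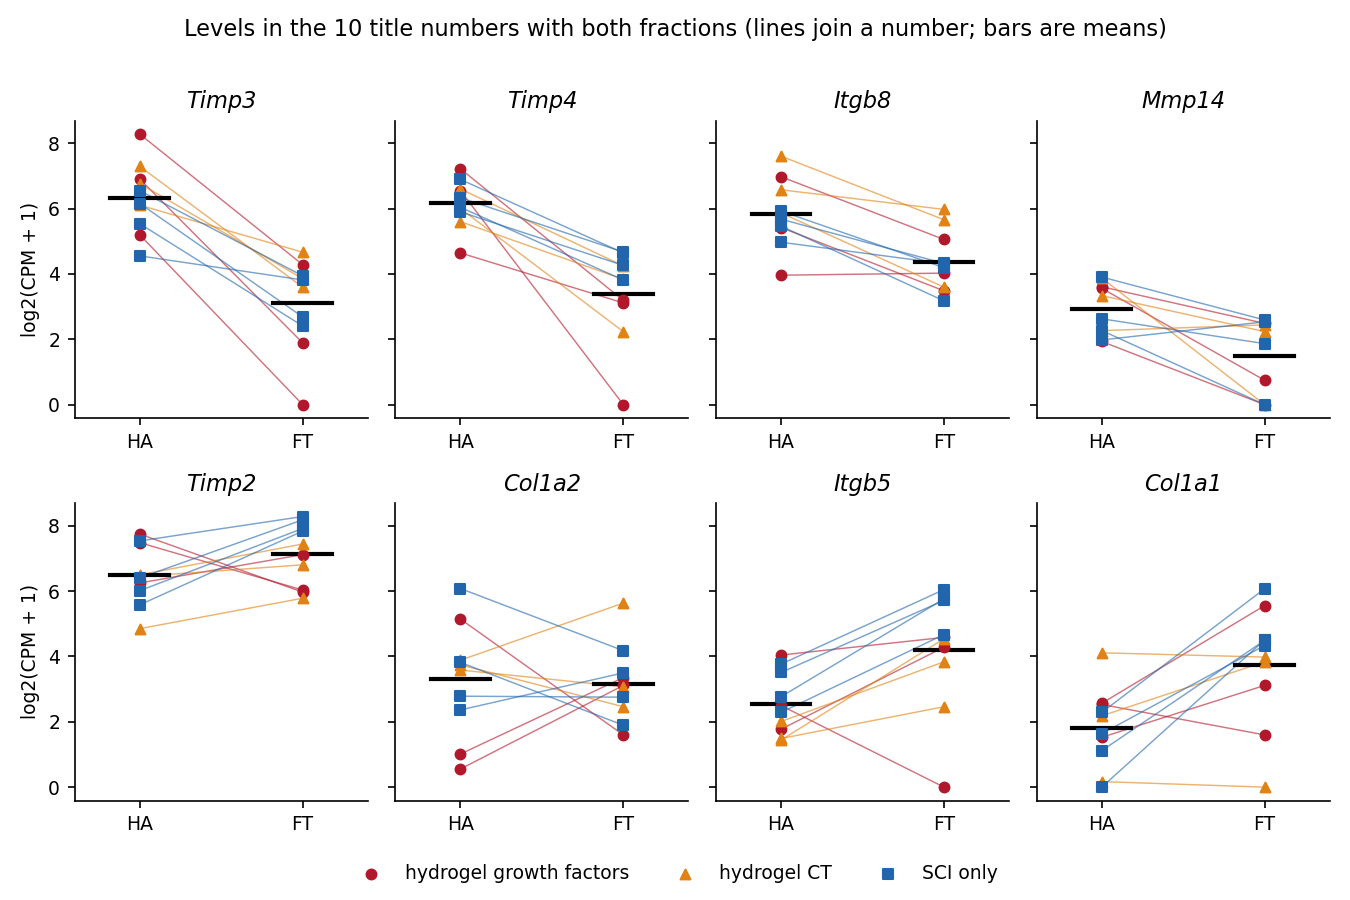
Levels of 8 members as log2(CPM + 1) on the common scale in HA (left in each panel) and FT (right), with a line joining the libraries of 1 title number, symbols for treatment and black bars for means of the log values. Timp3 and Timp4 lines all fall towards FT, as do 9 of 10 for Itgb8, whereas 9 of 10 Itgb5 lines and 7 of 10 Col1a1 lines climb.

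Among the integrins, Itgb8 (chromosome 12, 119158022 to 119238802, minus strand, 14 exons) had 14.6, 53.9 and 194 CPM in HA and 8.05, 18.1 and 62 CPM in FT. Means were 71.1 ± 53.4 and 24.4 ± 18.1 CPM, with a log2 difference of 1.57 (SE 0.41, edgeR adjusted p 0.00496). HA was higher in 9 of 10 numbers, the exception being number 1687 with 14.6 CPM in HA and 15.3 CPM in FT. Itgb5 (chromosome 16, 33829665 to 33949338, plus strand, 15 exons), which pairs with alpha V as a vitronectin receptor used in uptake of dying cells, had 1.72, 4.26 and 15.5 CPM in HA and 0, 22.6 and 65.2 CPM in FT. It was lower in HA in 9 of 10 numbers, with means of 6.18 ± 4.91 and 27.6 ± 21.9 CPM and a log2 difference of -2.09 (SE 0.59, edgeR adjusted p 0.00994). Itgb8 and Itgb5, which can each pair with alpha V, lay on opposite sides. Itgb1, the partner of most alpha chains, averaged 13 ± 7.56 CPM in HA and 10.2 ± 11.8 CPM in FT, a log2 difference of 0.33 (SE 0.64, edgeR adjusted p 0.761). Itga6, a laminin receptor chain, averaged 6.53 ± 3.85 and 9.9 ± 7.91 CPM, a difference of -0.61 (edgeR adjusted p 0.521).

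Markers of microglia and macrophages moved with Itgb5, summing to 17.3 to 850 CPM in HA and 94.3 to 7893 CPM in FT over the 9 of 13 listed for both fractions. Neuronal markers went the same way, summing to 29.3 to 273 CPM in HA and 286 to 1573 CPM in FT over 6 of 10. The part of either cell type in the Itgb5 difference was not tested. Itgax, the CD11c chain of myeloid integrins, had too few counts for the test, with 33 in HA and 66 in FT. DESeq2, which also took this gene, called it lower in HA (log2 difference -3.99, adjusted p 0.00154).

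Of the collagens, Col1a1 (chromosome 11, 94936224 to 94953042, plus strand, 51 exons) had 0, 2.82 and 16.3 CPM in HA and 0, 17 and 66.4 CPM in FT. Means were 3.87 ± 4.7 and 21.3 ± 20.5 CPM, with a log2 difference of -2.52 (SE 0.80, edgeR adjusted p 0.0215). It was lower in HA in 7 of 10 numbers, among them 4 of 4 SCI only numbers, whose values were 1.17, 3.88, 2.11 and 0 CPM in HA and 21.5, 66.4, 19.2 and 21.7 CPM in FT. The SCI only libraries alone gave -4.11 (SE 0.78, edgeR adjusted p 0.00216). Over all treatments the call was lost without number 1685, 9596, 9843, 9874 or 9935, with edgeR adjusted p of 0.0797, 0.0553, 0.0632, 0.0544 and 0.054. Col1a2, whose chain joins Col1a1 chains in the type I collagen helix, averaged 16.3 ± 20.2 CPM in HA and 11.5 ± 13.8 CPM in FT (log2 difference 0.61, SE 0.70, edgeR adjusted p 0.589).

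The share of Col1a1 in the summed counts of both type I collagen chains differed by fraction in SCI only libraries. Col1a1 held 22, 5.49, 26.3 and 0% in the SCI only HA libraries, against 67.7, 79.5, 76.9 and 88.9% in the SCI only FT libraries. The fractions did not overlap there, on 24 to 182 summed counts in HA and 9 to 96 in FT. In the growth factor numbers 1685, 1687 and 1732 the HA shares were 82.8, 80 and 12.2%, against FT shares of 83.3, 50 and 50%. In the hydrogel CT numbers 1724, 1759 and 1762 the HA shares were 59.6, 20.4 and 1%, against FT shares of 66.7, 21.4 and 0%. The fractions overlapped there, on 1 to 28 summed FT counts. These FT sums were 12, 2 and 6 counts in 1685, 1687 and 1732, and 6, 28 and 1 in 1724, 1759 and 1762. With so few counts, a likeness between the HA and FT shares of a number carries little weight. Of 11 fibroblast and mural cell markers 2 were listed for HA and 1 for FT, and Dcn, Lum, Pdgfra and Pdgfrb were listed for neither. Only 1 could be set on the common scale, at 0 to 9.35 CPM in HA and 0 to 14.8 CPM in FT.

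Of the proteases, Mmp14, the membrane-anchored activator of Mmp2, averaged 7.74 ± 4.51 CPM in HA and 2.59 ± 2.19 CPM in FT. Its log2 difference of 1.46 did not pass (SE 0.66, edgeR adjusted p 0.112). Mmp15, a related membrane-anchored enzyme, averaged 5.77 ± 5.18 and 3.13 ± 4.39 CPM (difference 1.04, adjusted p 0.305). Adam19, a member of the meltrin group, averaged 3.66 ± 6.67 and 5.22 ± 4.65 CPM (difference -1.22, adjusted p 0.266). The other 9 members shared by both tables had too few reads for this test. Mmp24, a membrane-anchored enzyme known from neurons, was listed for FT alone, at 14.8 CPM in 1 growth factor library and up to 6.97 CPM in SCI only.

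Beyond the members, partner lists of the same processes were read in the same fit. Of all 3295 genes tested there, 13.2% passed as higher in HA and 7.37% as lower. Sparc, a collagen-binding matrix protein, was the 1 tested of 9 basement membrane partners and was higher in HA by 3.45 on the log2 scale (SE 0.64, edgeR adjusted p 0.000129). Of 7 tested among 16 integrin adaptors 2 were higher, Bcar1 by 2.96 and Parvb by 1.49. Of 4 tested among 10 genes of the plasmin system and protease inhibitors 2 were higher, A2m by 2.93 and Serpine2 by 2.06, both broad protease inhibitors. None of 2 tested collagen synthesis and crosslinking genes (of 17) and none of 3 tested interstitial matrix genes (of 16) passed edgeR's threshold.

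**Figure D3:**
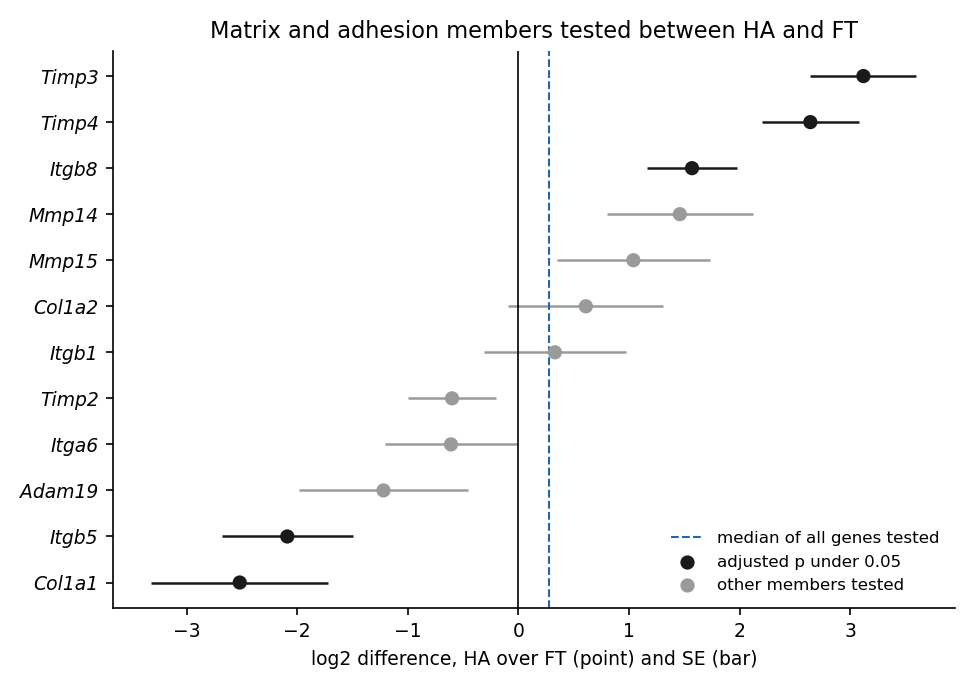
Log2 difference of HA over FT (horizontal, point with SE bar) for the 12 members tested (vertical), black where edgeR's adjusted p was under 0.05. The 3 black points on the right are Timp3, Timp4 and Itgb8 and the 2 on the left are Itgb5 and Col1a1, and the dashed line marks the median of all genes tested, 0.28.

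The next comparisons ask how the hydrogel and its growth factors relate to the levels of these genes in the tagged RNA. No member passed edgeR's threshold in any of them. Each tested 35 members among 6654 genes, of which 0.0902% passed for growth factors against hydrogel CT, 0.195% for hydrogel CT against SCI only and 0.436% for growth factors against SCI only. At an unadjusted p under 0.05 there were 2, 1 and 5 members in that order, against 13.3%, 12.7% and 21% of all genes. DESeq2 called 1 of 42, 2 of 45 and 6 of 43 members with an adjusted p, where it called 4.84%, 4.23% and 11.4% of all genes. Each treatment enters a pair of these comparisons, so they share libraries. Median log2 differences were 0.32 over members and -0.14 over all genes for growth factors against hydrogel CT, 0.01 and 0.27 for hydrogel CT against SCI only, and 0.36 and 0.12 for growth factors against SCI only.

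Of the inhibitors in HA, Timp3 had 203, 19.4 and 73 CPM in growth factor libraries, 93.7, 41.7 and 66.8 CPM with hydrogel CT and 26.3, 11.2, 50.6 and 36 CPM in SCI only. The groups overlapped, and growth factors against SCI only gave 1.67 (SE 0.68, edgeR p 0.0244, adjusted p 0.178). Timp2 had 117, 40.8 and 130 CPM with growth factors, 52, 55 and 17.2 CPM with hydrogel CT and 36.8, 41.7, 101 and 24 CPM in SCI only. Its differences were 1.21 for growth factors against hydrogel CT (edgeR adjusted p 0.44) and 0.92 for growth factors against SCI only (adjusted p 0.409). Timp4 had 60.7, 13 and 90.2 CPM with growth factors, 38, 29.3 and 59.3 CPM with hydrogel CT and 34, 32.2, 64.1 and 40.7 CPM in SCI only. Library 1687 was the lowest of the growth factor libraries for Timp2, Timp3, Timp4 and Itgb8 alike.

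Among the integrins, Itgb8 had 81.8, 7.91 and 25.6 CPM with growth factors, 34.6, 58.1 and 119 CPM with hydrogel CT and 17.6, 21.4, 32.6 and 25.7 CPM in SCI only. All hydrogel CT libraries lay above all SCI only libraries, with a log2 difference of 1.54 (SE 0.68, edgeR p 0.0359, adjusted p 0.359). Itgb1 had 7.61, 4.34 and 9.7 CPM, then 11.9, 18.1 and 7.96 CPM, and 5.69, 1.93, 7.69 and 2.51 CPM in the same groups, and it differed by 1.49 between hydrogel CT and SCI only (SE 0.81, adjusted p 0.46). Itgb5 had 1.04, 1.86 and 1.12 CPM with hydrogel CT and 2.24, 2.89, 6.88 and 5.3 CPM in SCI only, a difference of -1.69 (SE 1.06, adjusted p 0.522). These 3 beta chains were the members whose hydrogel CT and SCI only libraries did not overlap, 3 of 35 where 18.9% of all genes did so.

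Of the alpha chains, Itga4, a leukocyte chain that binds Vcam1 and fibronectin, had 0.122, 0 and 0 CPM with growth factors, 9.53, 0.731 and 0.0771 CPM with hydrogel CT and 0, 4.05, 0 and 0 CPM in SCI only. Library 1724 alone held 65.7% of its summed CPM, and growth factors against hydrogel CT gave -5.88 (SE 2.53, edgeR p 0.0322, adjusted p 0.332). Exons of Itga4 overlap those of another gene, Cerkl. Itga6 averaged 5 ± 3.65, 3.4 ± 0.843 and 2.98 ± 0.942 CPM with growth factors, hydrogel CT and SCI only. Itga9, which binds tenascin C and other ligands, averaged 7.67 ± 7.15, 3.21 ± 2.57 and 2.56 ± 2.18 CPM, and neither chain passed in any of the 3 comparisons. DESeq2 called the laminin receptor chain Itga7 lower in both hydrogel groups than in SCI only, on 0.0609, 0 and 0.0859 CPM with growth factors, 0.18, 0.397 and 0.0514 CPM with hydrogel CT and 0.524, 1.35, 2.64 and 4.46 CPM in SCI only. It was not among the genes edgeR tested.

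Adamts20, an Adamts protease known in mice for a role in pigment cell migration, had the smallest p of the members in the growth factor against SCI only comparison. Its values were 10.8, 7.14 and 2.23 CPM with growth factors, 1.42, 1.17 and 0.797 CPM with hydrogel CT and 0.224, 0, 0.459 and 1.39 CPM in SCI only. All growth factor libraries lay above every library of the other treatments. Of 35 members the groups did not overlap for 2 against hydrogel CT (Adamts20 and Adam19), where 18.4% of all genes did not, and for 3 against SCI only (Adamts20, Lamc1 and Mmp2), where 14.2% did not. The log2 difference was 3.78 against SCI only (SE 1.30, edgeR p 0.00956, adjusted p 0.137) and 2.57 against hydrogel CT (SE 1.34, adjusted p 0.413). DESeq2 called the first of these (3.77, adjusted p 0.00813), and the authors' deposited table gives 3.85 with a false discovery rate of 0.0447.

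The other Adamts genes varied among libraries within a treatment. Adamts2, which trims procollagen, had 0, 2.04 and 4.81 CPM with growth factors, 0.113, 0.0418 and 0.308 CPM with hydrogel CT and 4.04, 4.24, 0 and 0.558 CPM in SCI only. Hydrogel CT gave -3.79 against SCI only (SE 1.86, edgeR adjusted p 0.417), and growth factors gave 3.82 against hydrogel CT (SE 1.91, adjusted p 0.393). Adamts1 and Adamts5, which cut proteoglycans such as versican and aggrecan, averaged 3.3 ± 5.64 and 2.57 ± 1.2 CPM with growth factors. With hydrogel CT they averaged 3.86 ± 4.66 and 1.55 ± 1.47 CPM, and in SCI only 0.903 ± 1.37 and 2.34 ± 1.66 CPM. None of these passed in any of the 3 comparisons.

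Among the laminins, Lamc1, the gamma chain of most laminins, had 0.122, 0.765 and 0.601 CPM with growth factors, 5.91, 0.689 and 0.463 CPM with hydrogel CT and 1.57, 13.1, 9.18 and 1.12 CPM in SCI only. Growth factor libraries lay below all SCI only libraries, with a log2 difference of -3.72 (SE 1.45, edgeR p 0.0195, adjusted p 0.169), which DESeq2 called (-3.78, adjusted p 0.0301). Lamb2, the beta chain of synaptic and vascular basement membranes, averaged 1.35 ± 1.49, 1.98 ± 2.25 and 2.53 ± 1.94 CPM. Lama4, an alpha chain of vessel basement membranes, was not tested and had 6.52, 1.28 and 0 CPM with growth factors, 0.113, 0 and 1.93 CPM with hydrogel CT and 0.224, 0, 0 and 0 CPM in SCI only. Endothelial markers summed to at most 1.29 CPM in every HA library, with 3 of 11 listed.

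Apart from Col1a2, which reached 33.2 CPM in 1 SCI only library, the collagens averaged at most 4.74 CPM in any HA treatment. Col9a2, a fibril-associated chain best known from cartilage, had 5.48, 0 and 0 CPM with growth factors, 1.44, 0.0835 and 0.501 CPM with hydrogel CT and 0.15, 0, 0 and 0 CPM in SCI only. Growth factors against SCI only gave 5.01 (SE 2.01, edgeR p 0.0228, adjusted p 0.173), and -3.47 without library 1685. Col1a2 averaged 7.32 ± 11.9, 7.57 ± 0.917 and 11.4 ± 14.7 CPM with growth factors, hydrogel CT and SCI only. Col23a1, a membrane-spanning collagen, averaged 4.74 ± 5.54, 1.69 ± 1.36 and 4.31 ± 2.88 CPM. Col3a1, the fibrillar chain of soft connective tissue, did not exceed 1.02 CPM in any HA library and was not tested.

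Among the remaining proteases, Mmp19, a secreted enzyme, had 3.9, 4.85 and 41.6 CPM with growth factors, 4.53, 2.59 and 2.58 CPM with hydrogel CT and 1.8, 9.45, 2.64 and 5.02 CPM in SCI only. Growth factors against hydrogel CT gave 2.38 (SE 1.06, edgeR p 0.0377, adjusted p 0.349), with library 1732 holding 52.7% of the summed CPM, and exons of Mmp19 overlap those of Tmem198b. Adam19 had 0.304, 0 and 0.515 CPM with growth factors, 1.56, 0.668 and 1.48 CPM with hydrogel CT and 1.95, 0.386, 1.49 and 11.4 CPM in SCI only. It differed by -3.64 between growth factors and SCI only (SE 1.55, edgeR p 0.0308, adjusted p 0.195).

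Adam10, the shedding enzyme that acts on Notch and other receptors, averaged 7.5 ± 8.01, 2.45 ± 1.58 and 1.48 ± 1.7 CPM with growth factors, hydrogel CT and SCI only. Adam12, another meltrin, averaged 0.203 ± 0.352, 4.27 ± 6.97 and 0.63 ± 0.684 CPM, with 77.2% of its summed CPM in library 1724. Mmp14 averaged 5.17 ± 3.17, 5.42 ± 3.06 and 3.37 ± 2.45 CPM, and Mmp15 averaged 1.98 ± 2.25, 1.88 ± 1.26 and 5.25 ± 3.27 CPM. In the authors' deposited table Mmp11, a stromelysin, was lower with growth factors than in SCI only (false discovery rate 0.0318), but it had 27 CPM in 1 SCI only library and 1.05 CPM in another, with the other SCI only and all growth factor libraries at 0. Mmp11 and Adamts20 were the 2 of 67 member transcripts past the threshold in the authors' deposited table for that comparison, against 412 of 10389.

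Among the 3 binding proteins, Itgb1bp1, which binds the tail of the beta 1 chain, averaged 0.343 ± 0.595, 0.394 ± 0.469 and 0.651 ± 1.07 CPM and did not pass in any comparison. Col4a3bp, a ceramide transfer protein, and Itgb3bp, a centromere protein, reached at most 0.748 and 0.426 CPM in any HA library. Over the 35 tested members, 6 (17.1%) had over 50% of their summed CPM in a single HA library, namely Adam12, Adam19, Col9a2, Itga4, Mmp16 and Mmp19, against 15.9% of all genes tested.

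**Figure D4:**
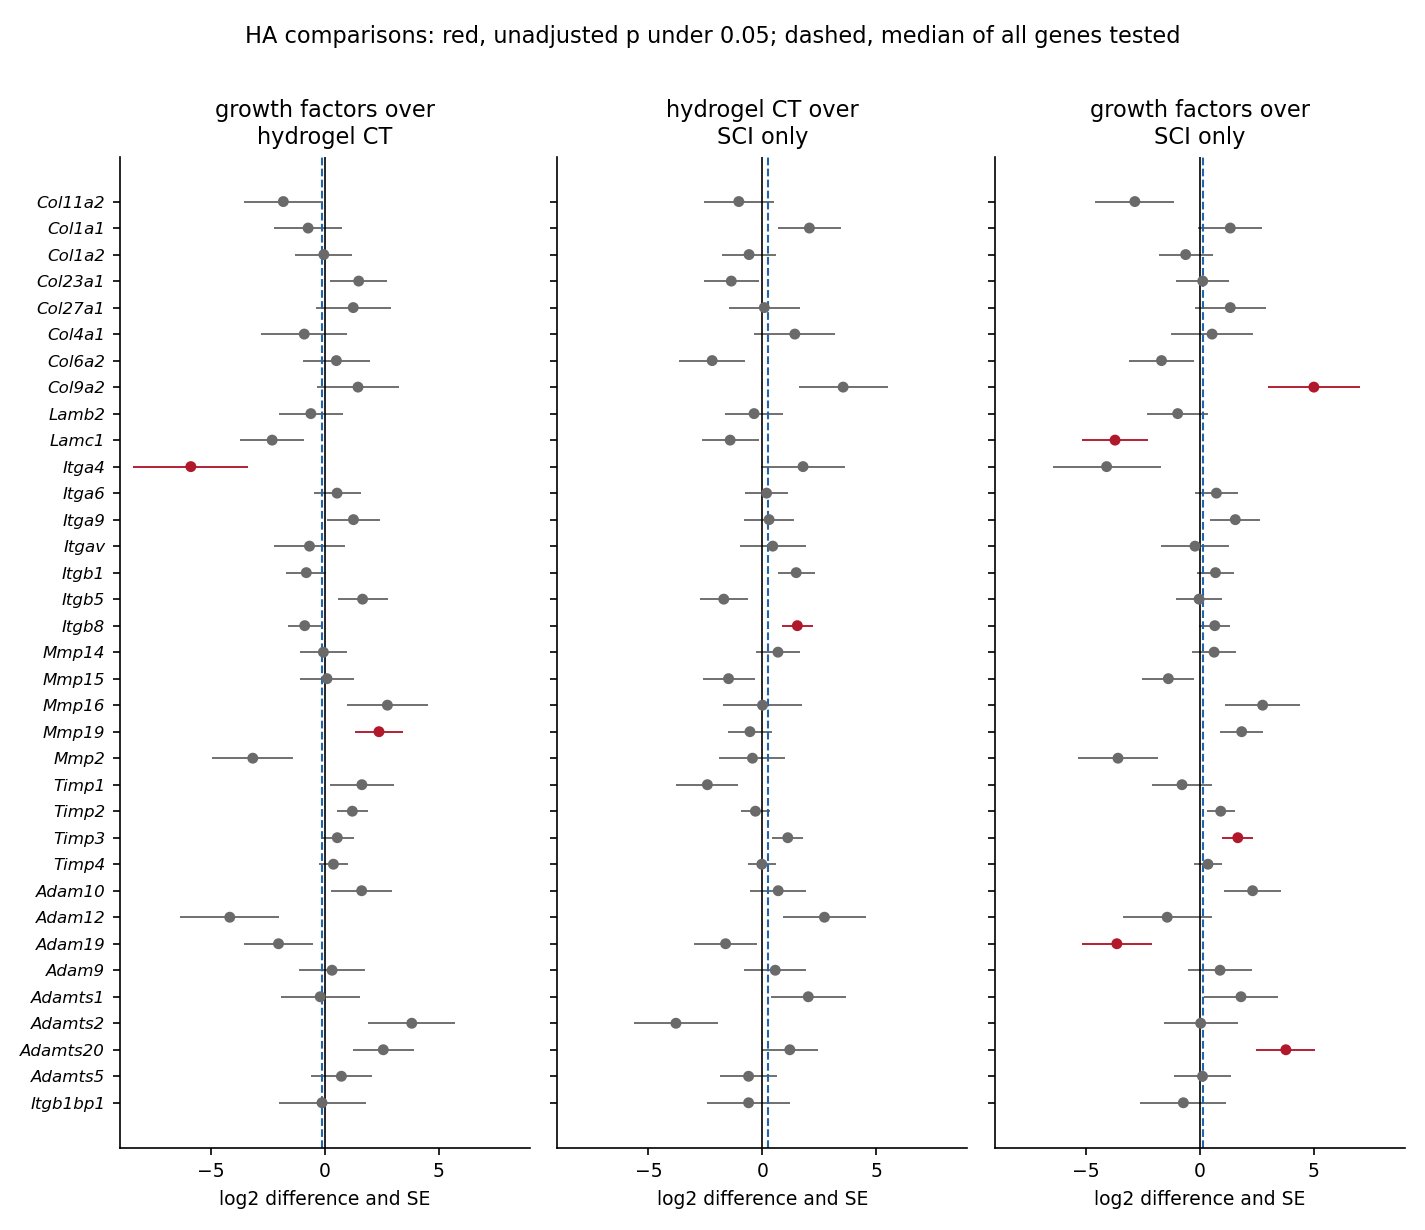
Log2 differences (horizontal, point with SE bar) of the 35 members tested in HA (vertical) for growth factors over hydrogel CT, hydrogel CT over SCI only and growth factors over SCI only. Red points mark an unadjusted p under 0.05 (2, 1 and 5 members) and dashed lines the median of all genes tested, and no point passed after adjustment.

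In the flow-through, the same comparisons ask how the levels of these genes differ by treatment in the unbound RNA. This RNA is not free of astrocyte signal. Astrocyte markers summed to 2526 to 2962 CPM in FT SCI only, over 11 listed of 14. Only Timp2 and Itgb8 had enough reads for the test among 610 genes, and neither passed edgeR's threshold, which 0% of genes passed for growth factors against hydrogel CT, 3.11% for hydrogel CT against SCI only and 3.77% for growth factors against SCI only. At an unadjusted p under 0.05 there were 0, 1 and 1 of the 2 members, against 3.77%, 17.9% and 18.7% of all genes. DESeq2 called 0 of 22, 1 of 9 and 1 of 9 members with an adjusted p, against 0%, 5.77% and 4.01% of all genes.

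Timp2 had 37.1, 115, 326, 26.9 and 122 CPM with growth factors, 26.7, 177, 235 and 91.4 CPM with hydrogel CT and 512, 652, 730 and 585 CPM in SCI only. All SCI only libraries lay above all hydrogel libraries, as they did for 10.7% of genes against growth factors and 19.7% against hydrogel CT in either direction. The log2 difference was -2.28 for growth factors against SCI only (SE 0.68, edgeR p 0.00245, adjusted p 0.0612) and -2.14 for hydrogel CT against SCI only (SE 0.72, p 0.00617, adjusted p 0.114). With DESeq2 both passed, at adjusted p of 0.03 and 0.0444, and the authors' deposited table gives -2.50 with a false discovery rate of 0.0127 for growth factors. These values rest on 1 to 91 Timp2 counts per growth factor library, 1 to 78 per hydrogel CT library and 84 to 728 per SCI only library.

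Itgb8 averaged 73.3 ± 80.6 CPM with growth factors (n = 5), 79.8 ± 47.5 CPM with hydrogel CT (n = 4) and 36.9 ± 13.1 CPM in SCI only (n = 4). Its log2 differences of 0.97 and 1.03 against SCI only did not pass (edgeR adjusted p 0.49 and 0.498). The Itgb8 values rest on 1 to 16 counts per growth factor library, 3 to 28 per hydrogel CT library and 7 to 57 per SCI only library. Between growth factors and hydrogel CT, Timp2 differed by -0.14 and Itgb8 by -0.05 (SE 0.69 and 0.74).

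Itgb5 and Itga5 had too few reads for the test in this fit. Itgb5 had 0, 32.8, 54.3, 13.5 and 0 CPM with growth factors, 0, 35.5, 18.1 and 7.62 CPM with hydrogel CT and 52.1, 120, 153 and 132 CPM in SCI only. Itga5, the alpha chain of the main fibronectin receptor, was at 0 in all 5 growth factor libraries and at 0, 0, 3.01 and 0 CPM with hydrogel CT, against 16.2, 20.4, 38.3 and 20.9 CPM in SCI only. A count of 0 allows up to 111, 24.6, 54.3, 40.4 and 4.03 CPM in the growth factor libraries (3 counts each), so 4 of these 5 zeros do not exclude the lowest SCI only level. The Itga5 zeros with hydrogel CT allow up to 80.1, 17.7 and 22.9 CPM and do not exclude it either. The Itgb5 values rest on 0 to 4 counts per growth factor library, 0 to 6 per hydrogel CT library and 19 to 74 per SCI only library.

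In the authors' deposited table Itga5, Itgax, Itgb5, Timp2 and Col3a1 were lower with growth factors than in SCI only (false discovery rates 0.000736, 0.001, 0.0223, 0.0127 and 0.0333), and Itga5 was lower with hydrogel CT (0.0283). These are 5 and 1 of 23 member transcripts, against 454 and 410 of all 5001 transcripts past the same threshold in that table. Microglia and macrophage markers moved alongside, summing to 108 to 2115 CPM with growth factors, 160 to 3841 CPM with hydrogel CT and 7127 to 17769 CPM in SCI only over 9 listed of 13. Their part in these differences was not tested.

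**Figure D5:**
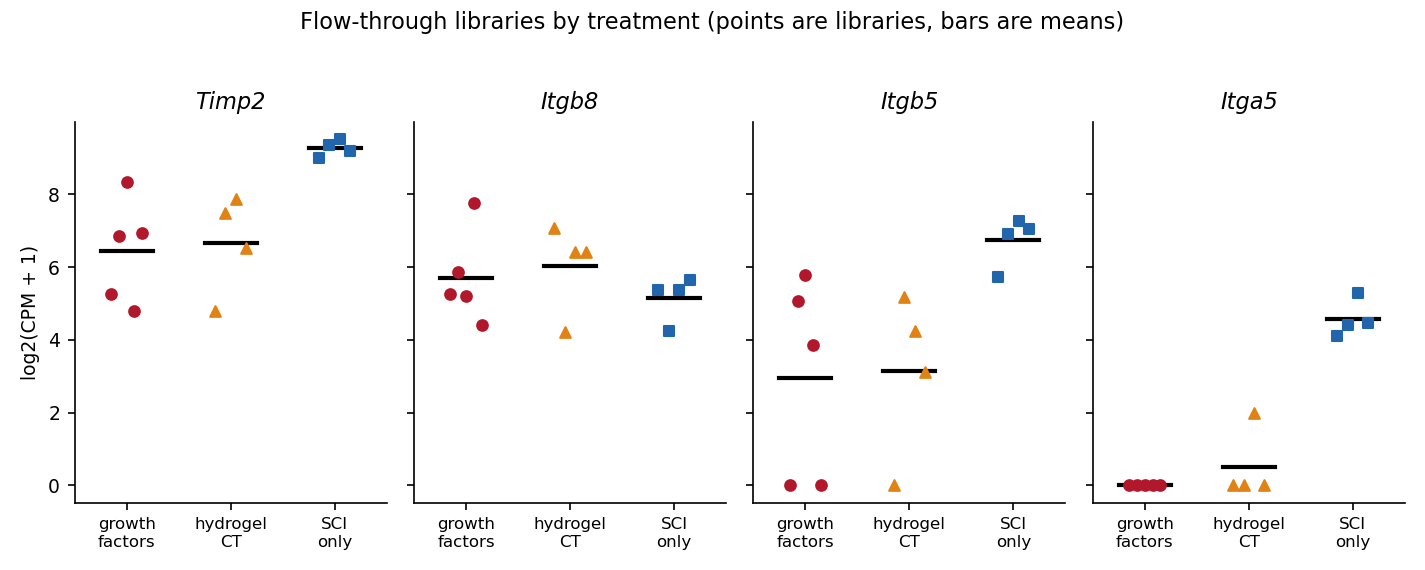
Levels of Timp2, Itgb8, Itgb5 and Itga5 as log2(CPM + 1) in the FT libraries of growth factors, hydrogel CT and SCI only (points, 5, 4 and 4 libraries), with bars for means of the log values. The SCI only points of Timp2 (512 to 730 CPM) and Itga5 (16.2 to 38.3 CPM) lie above all hydrogel points. Most Itga5 zeros do not exclude the lowest SCI only level.

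Whether the HA to FT difference itself changed with the hydrogel was tested as an interaction, pooling both hydrogel treatments against SCI only. It took 21 members among 4747 genes, and 0 passed with edgeR (0% of all genes) and 0 with DESeq2 (0.294% of all genes), while 2 members had an unadjusted p under 0.05, against 8.97% of all genes. These were Timp2, whose HA to FT log2 difference was higher by 1.66 with hydrogel (SE 0.72, edgeR p 0.0254, adjusted p 0.47), and Col1a1, higher by 2.89 (SE 1.39, p 0.0439, adjusted p 0.544). Col3a1 and Adam12 came next at 5.46 (SE 2.71, adjusted p 0.551) and 7.63 (SE 3.83, adjusted p 0.555). Their size rests on nearly empty FT libraries. Adam12 had 0 counts in every FT library of both hydrogel treatments. Col3a1 had 0 counts with growth factors and 1 count with hydrogel CT in FT. The median was 1.19 over the 21 members and 0.54 over all genes tested, and for Timp3, Timp4, Itgb8 and Itgb5 the interaction was 1.19, 1.33, 0.22 and 1.05 with adjusted p from 0.646 to 0.96.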

How the data were processed

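The 23 libraries in 6 groups, 10 of HA and 13 of FT, share 10 title numbers between fractions. The authors deposited whole-number read counts per Ensembl transcript, HA and FT separately. For every treatment pair their tables add, per the file headers, a p-value, a false discovery rate and a log2 fold change. Per the labels' protocols, RNA was amplified with the NuGEN Ovation system before library preparation. The submitters' processing notes name edgeR, CASAVA 1.8.2 and the mm10 build. The aligner, the counter and its strand setting were not given in the sources used here, so reads of overlapping or antisense genes cannot be told apart. A further 45 per-sample columns were not used.

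Counts were summed per symbol (9363 genes in HA, 4898 in FT). Rows without a symbol (136 and 35) held 0.00272% to 0.319% of a library's counts and were left out. Tests were two-sided edgeR 4.0.16 quasi-likelihood tests in R 4.3.3 with TMM scaling and filterByExpr (minimum count 10), Benjamini-Hochberg adjusted over all genes tested, threshold 0.05. Of the 58 HA members 35 passed the filter on low counts and 23 did not. CPM scales each count by the library size after TMM. HA was compared with FT on genes of both tables with a treatment term, on a scale of its own. DESeq2 1.42.0 was the other tool. Scripts were tested on simulated data. Floors of 3 counts cover counting error only. Coordinates are from GENCODE M21.

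The members and lists were chosen with earlier results of these data known. The text names members past the threshold, the 3 of each class with most counts, and the 4 with the smallest p in each comparison. Others, such as Itga5, Itga7, Itgax, Mmp11, Mmp16, Mmp24 and Timp1, were named after their values were seen. The labels do not say that libraries come from separate animals, so p-values measure the spread between libraries, which may be technical. No libraries were copies of each other (chi-square per degree of freedom 4.61 to 267). HA and FT come from the same tissue samples per the series design, and a shared title number is taken to mark them. Same-numbered libraries' deviations correlated by 0.00205 to 0.0804.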

Additional observations from a re-analysis of the deposited data

Results flagged for a closer look

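In the 4 HA SCI only libraries, Col9a2 was at 0.15 CPM in library 9596 and at 0 in the other 3. Itga4 was at 4.05 CPM in library 9843 and at 0 in the other 3. Each of these libraries passed Dixon's 95% criterion for 4 samples, which any value above 0 does where the other 3 are at 0. The Col9a2 value is 2 counts, under that library's floor of 0.224 CPM, and the Itga4 value is 21 counts. Of 32 groups examined 2 were picked out, and chance picks about 1 in 20.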

How the results depend on the processing

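In HA against FT, the count of members past the threshold was 4 to 6 in all 18 alternatives, against 5. Timp3, Timp4, Itgb8 and Itgb5 passed in each of them. With the title number as a replicate block, the same 5 members passed and no member's call changed. Without Yam1, Lars2 and Gm or Rik models, and with DESeq2 size factors, Col1a1 had too few reads for the test. The median of all genes was 0.28 with edgeR and -0.09 with DESeq2, and for HA growth factors against SCI only 0.12 and -0.17. For HA, DESeq2 called 1 member for growth factors against hydrogel CT (Lama2), 2 for hydrogel CT against SCI only (Itga7, Itgax) and 6 for growth factors against SCI only (Adamts20, and lower Adam19, Col6a1, Itga5, Itga7 and Lamc1), where edgeR called 0. Lama2, Itga7, Itgax, Col6a1 and Itga5 did not pass edgeR's filter on low counts, so edgeR could not call them. Both tools tested Adamts20, Adam19 and Lamc1, and the cause of their unlike calls was not tested. For FT hydrogel CT against SCI only, DESeq2 called 1 and a fit of the 2 groups alone called 2 (Itgb5, Timp2). For FT growth factors against SCI only, DESeq2 called 1, no filter on low counts 2 (Itga5, Itgax), a minimum mean of 5 CPM 4, a fit of the 2 groups alone 1, and leaving out 1 library 0 to 1 (Timp2 at an adjusted p of 0.0381 without 1687). Col9a2 for HA growth factors against SCI only ran from -3.47 to 8.51 with 1 library left out. In FT growth factors against hydrogel CT, Itgb8 turned to 0.05 with DESeq2 and 0.05 with DESeq2 size factors. With 1 library left out, Itgb8 ran from -1.09 to 0.22 and Timp2 from -0.80 to 0.24. In 4 FT libraries the counts without Yam1, Lars2 and Gm or Rik models were under 10000. Leaving these out, chosen after seeing the data, left 5 members called in HA against FT and 0 in each FT comparison. Depth limits FT most, since 3 counts amount to as much as 111 CPM there.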
